A study of Mus musculus with 4 samples.

Results

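The genes described here are 54 ribosome biogenesis factors of the mouse, proteins and RNA polymerase I subunits that make and mature ribosomal RNA and assemble it into ribosomal subunits. A member was measured where a probe set carried its symbol alone, and its brightest probe set stood for it, which gave 51 measured members among 12456 genes used. Fbl, Tsr1 and Mrto4 had probe sets only in common with other genes and are not reported. All 51 measured members passed the signal floor of 3.83, a log2 signal reached on at least 1 array.

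The arrays came from B lymphocytes of C57BL/6 mice, sorted with an antibody to the B cell surface protein B220 (CD45R) from cell suspensions of spleens, thymi and lymph nodes. The 4 groups were stimulated Tilcara, non-stimulated Tilcara, stimulated wild-type and non-stimulated wild-type cells, with 1 array each. Tilcara (Til) is labelled as a PKCbeta mutant on the C57BL/6 background; the sources used here do not give the allele, the age of the mice or the number of mice per array. Stimulation combined PMA at 10 ng/mL, a phorbol ester and activator of protein kinase C, with the calcium ionophore A23187 at 1 µM, for 4 hours. Whether non-stimulated cells were cultured for the same time is not stated there. Since no group has a second array, a difference between 2 groups is one between single arrays, with no replicate spread and no test.

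Ribosomes are built in the nucleolus. RNA polymerase I transcribes a long precursor RNA, small nucleolar ribonucleoproteins (snoRNPs) modify its nucleotides, and a large particle, the small subunit processome, folds and cuts its first part. The large subunit is assembled on the rest of the precursor, and both subunits are then exported and finished in the cytoplasm. Resting lymphocytes make few ribosomes, and activated lymphocytes enlarge their nucleoli before they divide.

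Stimulation was accompanied by higher signals of every measured factor in both genotypes. Over the 51 members the median difference, stimulated minus non-stimulated, was 1.98 in Tilcara and 2.15 in wild type, on a log2 scale where 1 is 2-fold. Over all genes used these medians were 0.04 and 0.03. At least 2-fold higher were 48 of 51 members in Tilcara, against a background of 11.9% of all genes used, and 48 of 51 in wild type, against 13.4%. Both genotypes passed 2-fold for 47 members, against 9.67% of all genes, and no member was lower in either genotype. For each of the 51, both stimulated arrays lay above both non-stimulated arrays, which held for 39.1% of all genes in the same direction.

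A limma model of stimulation and genotype together, with Benjamini-Hochberg adjustment over all 12456 genes, called 51 members that rose and 0 that fell. The background was 22.0% of genes that rose and 22.8% that fell. The limma changes of the members ran from 0.55 for Npm1 to 3.14 for Polr1b, with a median of 2.04, standard errors between 0.15 and 0.22, and adjusted p between 0.0011 and 0.040. By this estimate 28 members rose 4-fold or more, against 2.84% of all genes, and Polr1b and Rrp1b rose most. In this model the 2 arrays of a state, one per genotype, act as its samples, and the gap between both responses is its 1 degree of freedom for error. limma weighs that gap together with a variance shared over all genes used, worth 3.46 further degrees of freedom. Its p-values therefore set the size of a change against both, and do not measure the spread between animals. The members were chosen with earlier results of these data known, so their joint increase is a description and not independent evidence.

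**Figure D1:**
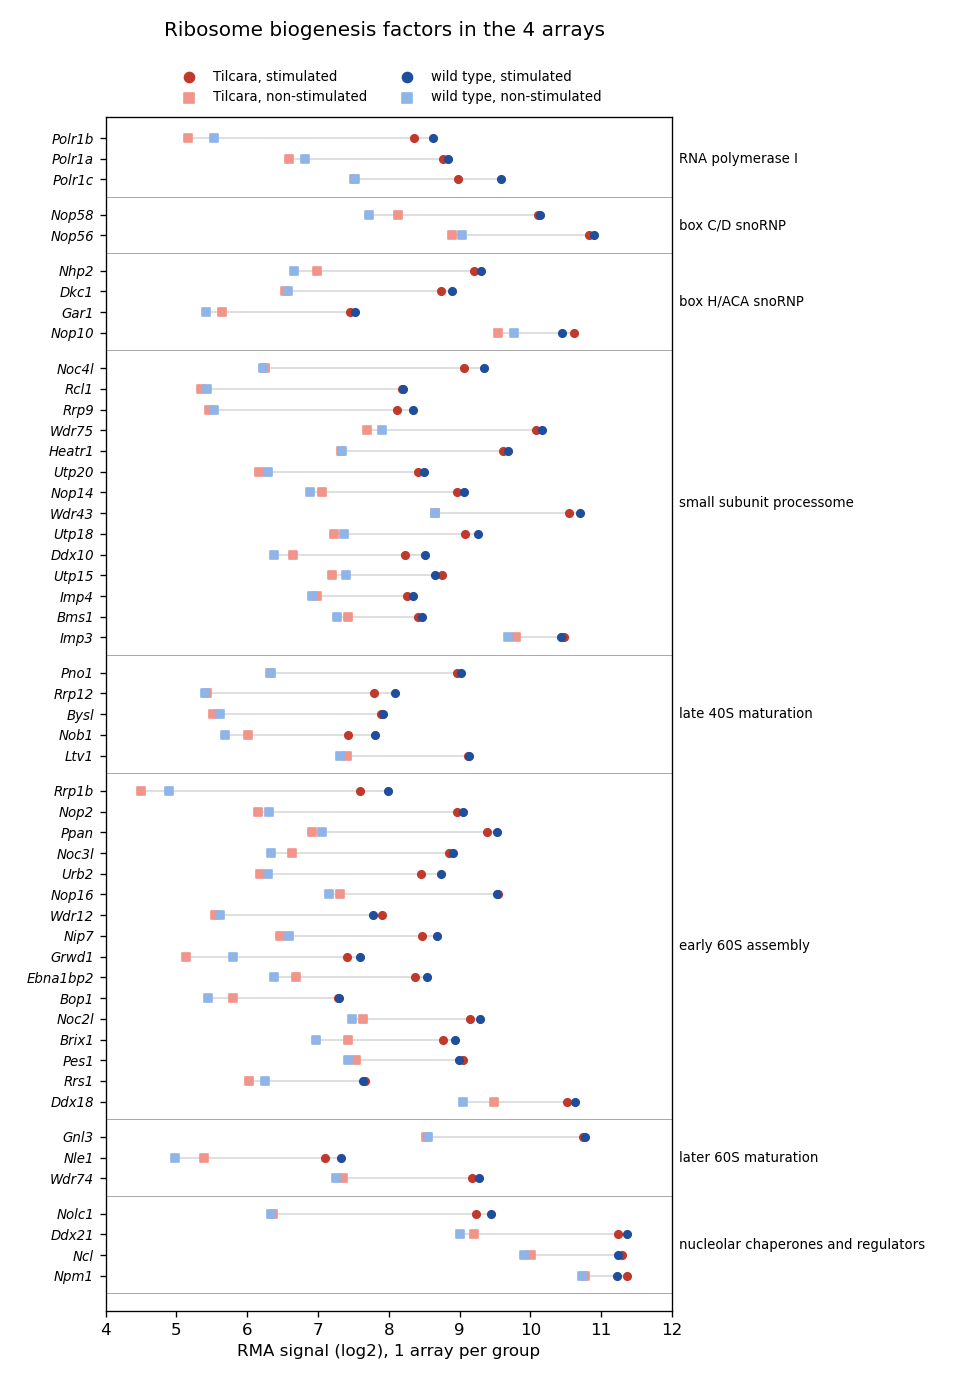
RMA signal (log2, horizontal axis) of the 51 measured factors in the 4 arrays, with 1 point per array, grouped by role and ordered within a role by the limma change. Circles are stimulated and squares non-stimulated arrays, red Tilcara and blue wild type; in each of the 51 rows both circles lie to the right of both squares.

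Other features of these samples frame those values. Of 10 B cell markers 9 were measured, all 9 fell with stimulation in limma, and their summed linear signals were 2634 in stimulated and 13618 in non-stimulated Tilcara, and 2246 in stimulated and 13582 in non-stimulated wild type. Neutrophil markers summed to 78 and 99 in the stimulated and non-stimulated Tilcara arrays, and to 92 and 808 in the stimulated and non-stimulated wild-type arrays, with 5 of 10 (Ly6g, Camp, Ltf, Retnlg and Csf3r) below the floor in all 4 arrays. T cell markers (9 of 10 measured, Cd8a below the floor throughout) summed to between 121 and 208, macrophage or monocyte markers (9 of 10, Cd14 below the floor) to between 252 and 368, and NK cell markers (9 of 9, Klrb1c and Gzmb below the floor) to between 126 and 320. Plasmacytoid dendritic cell markers (6 of 6) summed to between 361 and 549, and erythroid markers (2 of 6, Epor below the floor) to between 37 and 75. The part of these cells in the members' values was not tested. Markers of proliferating cells (7 of 8, Birc5 and Bub1 below the floor) summed to 102 and 104 in stimulated and non-stimulated Tilcara and to 123 and 132 in stimulated and non-stimulated wild type. Of their 5 genes above the floor 2, Mki67 and Aurkb, fell in limma and 0 rose. In such sorted populations, fewer cells of a type and less RNA per cell cannot be told apart. Prkcb, which encodes PKCbeta, read 7.27 and 9.39 in stimulated and non-stimulated Tilcara and 7.28 and 9.42 in stimulated and non-stimulated wild type, so its level does not check the genotype labels.

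Since the members moved together, their promoters were searched for CACGTG, the canonical E-box that MYC and other basic helix-loop-helix factors can bind. The letters read the same on both strands, and no other motif was searched. RefSeq windows (GRCm38.p6), from 250 bases before to 50 after a transcript start, were at hand for 49 of the 54 members, and 11 of these genes (22.4%) held the motif, against 11.6% of genes used and 15.5% of genes that rose. Of the 53 windows of the members 20.8% held it, against 7.15% of all 32851 windows, 9.93% of windows of genes used, 18.6% of windows of other ribosome biogenesis genes, 11.1% of windows of ribosomal protein genes and 13.8% of windows of genes that rose. The median GC content was 59.3% in members' windows, 60.3% in windows of genes used, 61.3% in those of genes that rose and 52.7% in all windows. Measured members with the motif had a median limma change of 2.0 (10 genes), and those without it in the window one of 2.19 (37 genes). A match is a run of letters and not a binding site. The windows below are those of the member with the largest limma change among motif holders in the small subunit processome (Utp20), late small subunit maturation (Pno1), early large subunit assembly (Nop2) and later large subunit maturation (Nle1). Polr1b, whose window holds no CACGTG, is added as the member with the largest change of all. Capitals mark CACGTG, and the regions are chr10:88826765-88827064 (minus strand), chr11:17211540-17211839 (minus strand), chr6:125131633-125131932 (plus strand), chr11:82908346-82908645 (minus strand) and chr2:129100746-129101045 (plus strand).
Utp20: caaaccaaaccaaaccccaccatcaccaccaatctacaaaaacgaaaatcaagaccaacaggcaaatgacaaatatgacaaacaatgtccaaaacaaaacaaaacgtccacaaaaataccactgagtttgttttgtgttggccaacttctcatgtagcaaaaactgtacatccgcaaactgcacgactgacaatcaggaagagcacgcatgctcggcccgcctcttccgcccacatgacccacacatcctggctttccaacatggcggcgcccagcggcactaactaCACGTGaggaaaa
Pno1: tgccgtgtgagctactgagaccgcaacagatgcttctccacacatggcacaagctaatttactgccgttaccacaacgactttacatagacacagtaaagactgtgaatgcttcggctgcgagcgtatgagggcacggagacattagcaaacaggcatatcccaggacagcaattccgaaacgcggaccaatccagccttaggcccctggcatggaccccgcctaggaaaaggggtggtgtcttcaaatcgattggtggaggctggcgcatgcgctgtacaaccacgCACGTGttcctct
Nop2: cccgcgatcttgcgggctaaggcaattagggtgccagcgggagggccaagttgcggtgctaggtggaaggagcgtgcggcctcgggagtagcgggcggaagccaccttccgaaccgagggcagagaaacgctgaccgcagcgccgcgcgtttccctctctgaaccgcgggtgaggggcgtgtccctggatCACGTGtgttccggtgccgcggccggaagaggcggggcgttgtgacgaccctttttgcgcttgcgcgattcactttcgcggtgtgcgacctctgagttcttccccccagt
Nle1: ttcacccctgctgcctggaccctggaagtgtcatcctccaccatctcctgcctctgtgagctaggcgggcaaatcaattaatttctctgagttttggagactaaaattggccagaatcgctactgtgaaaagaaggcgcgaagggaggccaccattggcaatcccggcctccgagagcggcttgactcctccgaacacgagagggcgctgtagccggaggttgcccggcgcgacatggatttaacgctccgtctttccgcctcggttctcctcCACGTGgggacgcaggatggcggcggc
Polr1b: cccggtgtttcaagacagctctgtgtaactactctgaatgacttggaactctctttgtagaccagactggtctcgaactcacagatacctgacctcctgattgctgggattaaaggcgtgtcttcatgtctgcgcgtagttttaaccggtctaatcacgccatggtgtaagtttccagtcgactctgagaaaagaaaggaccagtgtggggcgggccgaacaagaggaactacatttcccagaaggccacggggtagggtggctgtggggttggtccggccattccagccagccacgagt
Counted from the transcript start as base 1, the motif begins at base 38 in Utp20, at base 38 in Pno1 and at base 24 in Nle1. In Nop2 it begins 60 bases before the start.

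The 3 measured RNA polymerase I subunits rose. Polr1b, the second-largest subunit of the enzyme, had 8.36 in stimulated and 5.17 in non-stimulated Tilcara, and 8.63 in stimulated and 5.53 in non-stimulated wild type. That is 9.12-fold higher in Tilcara and 8.56-fold in wild type, and limma gave the largest change among the members (3.14, SE 0.15, adjusted p = 0.0011). Polr1a, the largest and catalytic subunit, had 8.77 and 6.59 in stimulated and non-stimulated Tilcara, and 8.84 and 6.82 in stimulated and non-stimulated wild type. Polr1c, which RNA polymerase III also uses, had 8.98 and 7.50 in stimulated and non-stimulated Tilcara, and 9.58 and 7.52 in stimulated and non-stimulated wild type. The non-stimulated arrays were nearly equal for Polr1c, whereas the stimulated Tilcara array was 1.51-fold lower than the stimulated wild-type array.

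Both kinds of snoRNP core proteins rose. Nop56 and Nop58 form the scaffold of box C/D snoRNPs, which guide methylation of ribosomal RNA. Nop56 had 10.82 and 8.89 in stimulated and non-stimulated Tilcara, and 10.89 and 9.03 in stimulated and non-stimulated wild type. Nop58 had 10.11 and 8.14 in stimulated and non-stimulated Tilcara, and 10.13 and 7.72 in stimulated and non-stimulated wild type. In both genes the stimulated arrays were almost level and the genotypes differed more in the resting state. Box H/ACA snoRNPs convert uridine to pseudouridine and hold the enzyme Dkc1 (dyskerin) with Gar1, Nhp2 and Nop10. Dkc1 had 8.73 and 6.53 in stimulated and non-stimulated Tilcara, and 8.90 and 6.58 in stimulated and non-stimulated wild type. Nhp2 rose by 2.43 in limma, and Gar1 by 1.96. Nop10, the smallest of these proteins, moved least of the complex, with 10.61 and 9.54 in stimulated and non-stimulated Tilcara and 10.45 and 9.77 in stimulated and non-stimulated wild type (limma change 0.87, SE 0.17, adjusted p = 0.017).

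All 14 measured factors of the small subunit processome rose, with a median limma change of 2.01 and a range from 0.72 to 2.97. Noc4l led them. It forms a complex with Nop14 in yeast, and had 9.07 and 6.25 in stimulated and non-stimulated Tilcara, and 9.35 and 6.22 in stimulated and non-stimulated wild type. Rcl1, the partner of the GTPase Bms1, had 8.19 and 5.35 in stimulated and non-stimulated Tilcara, and 8.20 and 5.43 in stimulated and non-stimulated wild type, or 7.14-fold and 6.80-fold higher. Bms1 itself moved less than its partner, with 8.41 and 7.43 in stimulated and non-stimulated Tilcara and 8.46 and 7.28 in stimulated and non-stimulated wild type. Rrp9, a protein of the U3 snoRNP that pairs with the precursor RNA, had 8.12 and 5.47 in stimulated and non-stimulated Tilcara, and 8.34 and 5.54 in stimulated and non-stimulated wild type.

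Factors that join the precursor first, known in yeast as the UtpA complex, rose by 2.32 (Wdr75), 2.32 (Heatr1), 1.97 (Wdr43) and 1.41 (Utp15) in limma. Heatr1 was close in both genotypes, at 9.62 and 7.33 in stimulated and non-stimulated Tilcara and at 9.69 and 7.34 in stimulated and non-stimulated wild type. Utp18, of the UtpB complex in yeast, rose by 1.87, and Utp20, a very large scaffold protein, by 2.23. For Utp20, whose window with its E-box is printed above, the signals were 8.41 and 6.17 in stimulated and non-stimulated Tilcara, and 8.50 and 6.29 in stimulated and non-stimulated wild type. Nop14 rose by 2.04 and the RNA helicase Ddx10 by 1.85. Imp3 and Imp4, which bind U3 RNA beside Mphosph10, differed in size of change. Imp4 rose by 1.36 and Imp3 by 0.72, and Imp3 had 10.48 and 9.79 in stimulated and non-stimulated Tilcara and 10.44 and 9.68 in stimulated and non-stimulated wild type.

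Late maturation of the small subunit was covered by Rrp12, Nob1, Bysl, Ltv1 and Pno1, and all 5 rose. Pno1 helps the endonuclease Nob1, which makes the last cut in the RNA of the small subunit. Pno1 had 8.96 and 6.32 in stimulated and non-stimulated Tilcara, and 9.02 and 6.33 in stimulated and non-stimulated wild type, nearly equal between genotypes in each state. Nob1 had 7.43 and 6.01 in stimulated and non-stimulated Tilcara, and 7.81 and 5.69 in stimulated and non-stimulated wild type. Its Tilcara response was thus 0.71 smaller than its wild-type response, the widest gap among the members on their brightest probe sets. Rrp12, an export factor, rose by 2.53 in limma, Bysl by 2.34 and Ltv1 by 1.76.

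All 16 factors of early large subunit assembly rose, with a median limma change of 2.05. Rrp1b led, at 7.60 and 4.50 in stimulated and non-stimulated Tilcara, and at 7.98 and 4.90 in stimulated and non-stimulated wild type. It was lower in Tilcara in both states, by 0.38 and 0.40 in stimulated and non-stimulated cells, and its 2 responses were 8.59-fold and 8.48-fold. Nop2, a methyltransferase of large subunit RNA, had 8.96 and 6.15 in stimulated and non-stimulated Tilcara, and 9.05 and 6.30 in stimulated and non-stimulated wild type. The PeBoW complex of Pes1, Bop1 and Wdr12 is needed to process the large subunit precursor. Its members rose by 1.54 (Pes1), 1.66 (Bop1) and 2.25 (Wdr12). Bop1 had 7.28 and 5.80 in stimulated and non-stimulated Tilcara, and 7.29 and 5.44 in stimulated and non-stimulated wild type. Ppan rose by 2.47, Noc3l by 2.40, Urb2 by 2.36, Nop16 by 2.29, Nip7 by 2.05, Ebna1bp2 by 1.91, Noc2l by 1.65, Brix1 by 1.65 and Rrs1, known in yeast for recruiting the 5S particle, by 1.51. Grwd1, a chaperone of the ribosomal protein Rpl3, had 7.42 and 5.13 in stimulated and non-stimulated Tilcara, and 7.60 and 5.80 in stimulated and non-stimulated wild type. The RNA helicase Ddx18 rose least of this group, by 1.32.

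The 3 measured factors of later large subunit maturation rose by 2.21 (Gnl3), 2.02 (Nle1) and 1.93 (Wdr74). Gnl3, or nucleostemin, is a nucleolar GTPase of proliferating cells, and had 10.74 and 8.53 in stimulated and non-stimulated Tilcara, and 10.77 and 8.56 in stimulated and non-stimulated wild type. Nle1, which the giant ATPase Mdn1 removes from the particle, had 7.10 and 5.39 in stimulated and non-stimulated Tilcara, and 7.32 and 4.98 in stimulated and non-stimulated wild type. The resting arrays of Nle1 were farther apart than the stimulated ones, and in the opposite order.

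Nucleolar chaperones and regulators spanned nearly the whole range of changes. Nolc1, a chaperone of snoRNPs, had 9.23 and 6.36 in stimulated and non-stimulated Tilcara, and 9.44 and 6.33 in stimulated and non-stimulated wild type (limma change 2.99, SE 0.16, adjusted p = 0.0012). The helicase Ddx21 rose by 2.20. Ncl, for nucleolin, had 11.30 and 10.01 in stimulated and non-stimulated Tilcara, and 11.23 and 9.91 in stimulated and non-stimulated wild type. Npm1, for nucleophosmin, changed least of all members on its brightest probe set, at 11.36 and 10.77 in stimulated and non-stimulated Tilcara and at 11.23 and 10.72 in stimulated and non-stimulated wild type (limma change 0.55, SE 0.15, adjusted p = 0.040). Its call was lost after cyclic loess (limma change 0.34, adjusted p = 0.14) and without a filter on low signals (adjusted p = 0.065).

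Other probe sets bore on the size of some changes. For 8 members there were 9 further probe sets with the same single symbol, all 9 higher with stimulation in both genotypes and 7 at least 2-fold so. The dimmer probe set of Npm1 had 8.89 and 6.90 in stimulated and non-stimulated Tilcara, and 8.98 and 7.30 in stimulated and non-stimulated wild type, which are differences of 1.99 and 1.68. For Npm1 the probe sets thus disagree on the size and not on the direction. With the mean over probe sets its limma change was 1.19, and Imp3 (0.74) and Nop10 (0.87) changed less. Imp3 differed by 0.73 and 0.78 in Tilcara and wild type on its other probe set, close to the values above. One of 2 further probe sets of Nop56 differed by 1.10 in Tilcara and 1.96 in wild type. There the Tilcara response was 0.86 smaller, a wider gap than on any brightest probe set. Its resting Tilcara signal was 0.64 higher than the resting wild-type signal.

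Genes of the same pathway outside the members were counted from a list of 145 symbols, of which 122 were measured. Several of the remaining symbols are other names of genes measured under another listed symbol, such as Polr1g for Cd3eap and Cirh1a for Utp4. They are therefore not all genes missing from the arrays. In limma 101 of these rose and 1 fell, with a median change of 1.45. Of other small subunit factors 36 of 40 rose and 0 fell, led by Pwp2 (2.73), Nol10 (2.53), the RNA acetyltransferase Nat10 (2.51) and Utp4 (2.50). Of other large subunit factors 38 of 43 rose and 0 fell, led by Tma16 (3.02), Rrp15 (2.83), Lyar (2.60) and Mdn1 (2.53). The small subunit list also held Lsg1 (1.06) and Sdad1 (1.81), which act on the large subunit. The large subunit list also held Znhit3 (1.07) and Znhit6 (2.34), which assemble box C/D snoRNPs. These genes rose and are counted in those lists, so the split by subunit is approximate. Further RNA polymerase I subunits and initiation factors split more, with 10 of 16 that rose and 1 that fell. Cd3eap (2.45), Polr2f (1.93), Polr2l (1.82) and Polr1e (1.77) changed most. Cd3eap and Polr1e are subunits of the enzyme, and Polr2f and Polr2l are subunits shared with other polymerases. The one that fell, Taf1b (-0.83), is a part of the selectivity factor that places the polymerase on the gene. Of further snoRNP and assembly genes 8 of 10 rose, led by Shq1 (2.48), Nufip1 (1.88), Ruvbl1 (1.85) and Ruvbl2 (1.71). Of the RNA exosome and its cofactors, which trim precursor RNA, 9 of 13 rose, led by Dis3 (2.18), Exosc2 (1.78), Exosc1 (1.55) and Mphosph6 (1.26).

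Ribosomal proteins, the structural parts that these factors assemble, were called as rising about as often as all genes, and seldom as falling. Of the small subunit 4 of 24 measured genes rose and 1 fell, and of the large subunit 9 of 35 rose and 0 fell. Together 13 of 59 (22.0%) rose, against 22.0% of all genes used, and 1 of 59 fell, against 22.8%, and the median limma change was 0.10, against 2.04 for the biogenesis factors. The largest changes were those of Rps27l (1.42), Rps15 (1.41), Rps7 (0.92) and Rps27 (-0.86), and of Rpl34 (2.36), Rpl37 (1.56), Rpl26 (1.55) and Rpl11 (1.41). Of 82 listed ribosomal protein genes 61 had a probe set of their own, and 59 of these passed the floor. Ribosomal protein genes have many near-identical copies, so their probe sets may read several loci. Some of the probe sets used were dim. Over the 4 arrays Rpl11 read between 4.44 and 6.22, and Rpl5 between 5.15 and 5.56, against the floor of 3.83. Whether such probe sets report the main transcript was not tested. The difference between the 2 lists was not tested.

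**Figure D2:**
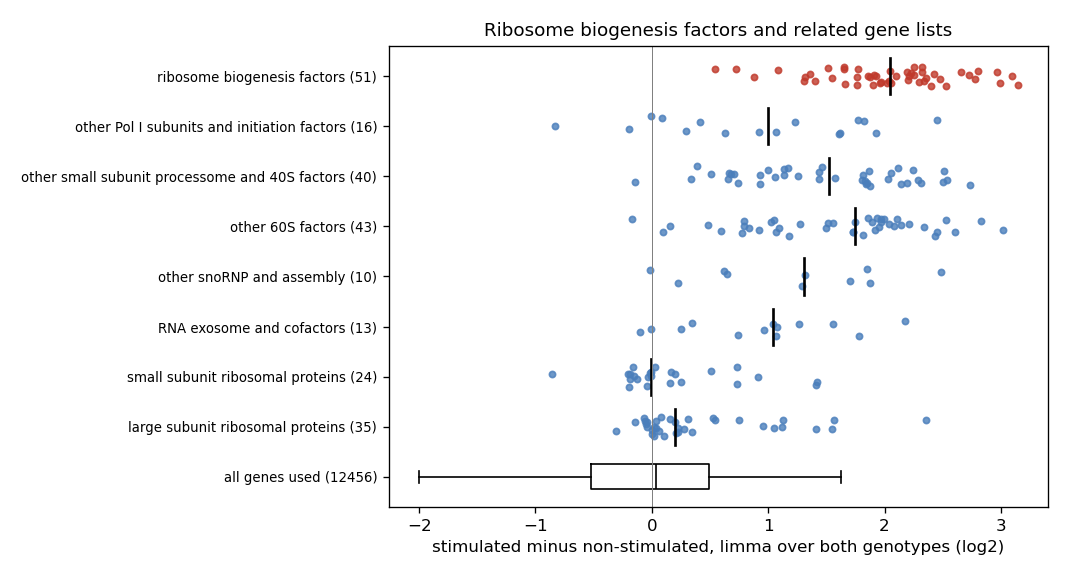
Limma stimulation change (log2, stimulated minus non-stimulated over both genotypes, horizontal axis) of the 51 factors, in red, and of related gene lists, in blue, with 1 point per gene, bars at the medians and gene numbers in brackets. The box shows the quartiles of all 12456 genes used, with whiskers at the 5th and 95th percentiles; the factors have a median of 2.04 and ribosomal proteins of both subunits together one of 0.10.

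Regulators around the pathway were counted too. Myc, a transcription factor known to drive genes of ribosome synthesis, had 10.75 and 8.75 in stimulated and non-stimulated Tilcara, and 10.92 and 8.96 in stimulated and non-stimulated wild type. It rose by 1.98 in limma (SE 0.15, adjusted p = 0.0017). In the MYC and MAX network 2 of 10 measured genes rose and 2 fell, shares near the background of 22.0% and 22.8%. The largest change there was that of Mxd4 (-2.80), a MAX partner, followed by Myc and by the MAX partners Mnt (0.89) and Mxi1 (-0.67). Mxd4 was below the signal floor in stimulated Tilcara (3.65), so the size of its change is approximate. Of 8 measured genes listed for the 5S particle and the p53 response to ribosome defects, 3 rose and 3 fell. Over all genes used the shares were 22.0% and 22.8%. That list also held Rrp9, a U3 snoRNP protein and a member above, counted among those that rose. Sesn1 (-3.47), the cell cycle inhibitor Cdkn1a (2.03) and Rpl11 (1.41) changed most after or beside Rrp9 (2.72).

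Between the genotypes, the stimulated members leaned to lower values in Tilcara. Tilcara minus wild type had a median of -0.09, against 0.01 over all genes. Below 0 were 42 of 51 members (82.4%), against 47.9% of all genes used and 58.8% of genes that rose. Other ribosome biogenesis genes leaned alike, with 87 of 122 below 0 and a median of -0.09. The sign of such small differences can depend on the probe set. In stimulated cells the other probe set had the opposite sign for Ppan (0.28 against -0.14), Npm1 (-0.09 against 0.13) and Imp3 (-0.05 against 0.04). The remaining members with further probe sets kept their sign. With the mean over probe sets 42 members were below 0. Of the members, Polr1c (-0.60) alone reached 0.5 in size, against 12.2% of all genes. No member reached 1, against 0.955% of all genes higher and 0.747% lower. Lower in stimulated and higher in resting Tilcara cells were 21 members, a pattern of 23.6% of all genes. The count was not tested. In limma, 0 members and 0 of all genes (0.0%) differed by genotype at an adjusted p under 0.05. At an unadjusted p under 0.05 there were 667 genes, among them 1 member, Rrp1b (genotype change -0.39, SE 0.15, adjusted p = 0.87). With an intensity trend and robust estimation, limma called 0 genes as well, and 690 had an unadjusted p under 0.05.

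The resting levels of the members were spread around 0 between the genotypes. Tilcara minus wild type in non-stimulated cells had a median of 0.02 over the members, as over all genes (0.02), with 25 of 51 members below 0 against 47.6% of all genes. No member differed by 1 or more, against 0.425% of all genes that were higher by that much and 0.658% that were lower. On the brightest probe sets Grwd1 alone differed by at least 0.5 (-0.66, 1.59-fold lower in Tilcara), against 10.2% of all genes. Brix1 (0.46), Ddx18 (0.44), Nop58 (0.41) and Nle1 (0.41) were the highest in Tilcara, and were picked after their values were seen.

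**Figure D3:**
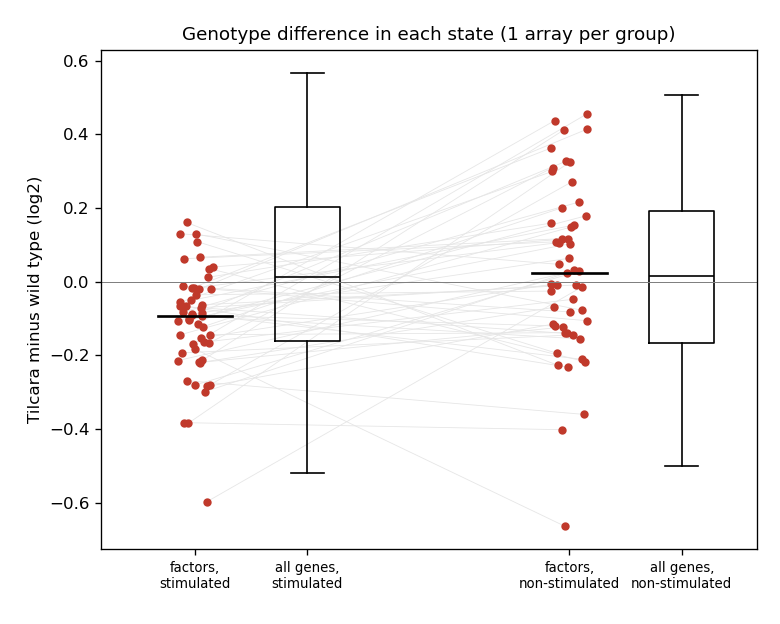
Tilcara minus wild type (log2, vertical axis) for the 51 factors, with 1 red point per gene, bars at the medians and grey lines joining a gene's 2 points, in stimulated cells on the left and non-stimulated cells on the right. Boxes show the quartiles of all genes used, with whiskers at the 5th and 95th percentiles; the medians of the factors are -0.09 in stimulated and 0.02 in non-stimulated cells.

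The gap between both responses stayed under 1 for all 51 members. Tilcara response minus wild-type response ran from -0.71 to 0.48 with a median of -0.12. It was below 0 in 36 of 51 members (70.6%), against 49.9% of all genes used and 61.0% of genes that rose. Among other ribosome biogenesis genes it was below 0 in 84 of 122, with a median of -0.13. A gap of at least 0.5 was found in 6 members (11.8%), against 22.8% of all genes. These were Nob1 (-0.71), Brix1 (-0.63), Nle1 (-0.63), Polr1c (-0.58), Ddx10 (-0.55) and Ddx18 (-0.55), each smaller in Tilcara. Brix1 had 8.76 and 7.42 in stimulated and non-stimulated Tilcara, and 8.93 and 6.97 in stimulated and non-stimulated wild type. Ddx18 had 10.52 and 9.48 in stimulated and non-stimulated Tilcara, and 10.64 and 9.05 in stimulated and non-stimulated wild type. For both genes the resting Tilcara array was the higher resting one and the stimulated Tilcara array the lower stimulated one. On its other probe set Ddx18 had a gap of only -0.31, short of 0.5 in size, with stimulated arrays almost level (-0.02). Grwd1 (0.48) and Nop10 (0.39) had the most positive gaps. Across the 51 members, which share the same 4 arrays, Pearson's r between both responses was 0.898, and a line through the origin gave a Tilcara response of 0.930 per unit of wild-type response.

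**Figure D4:**
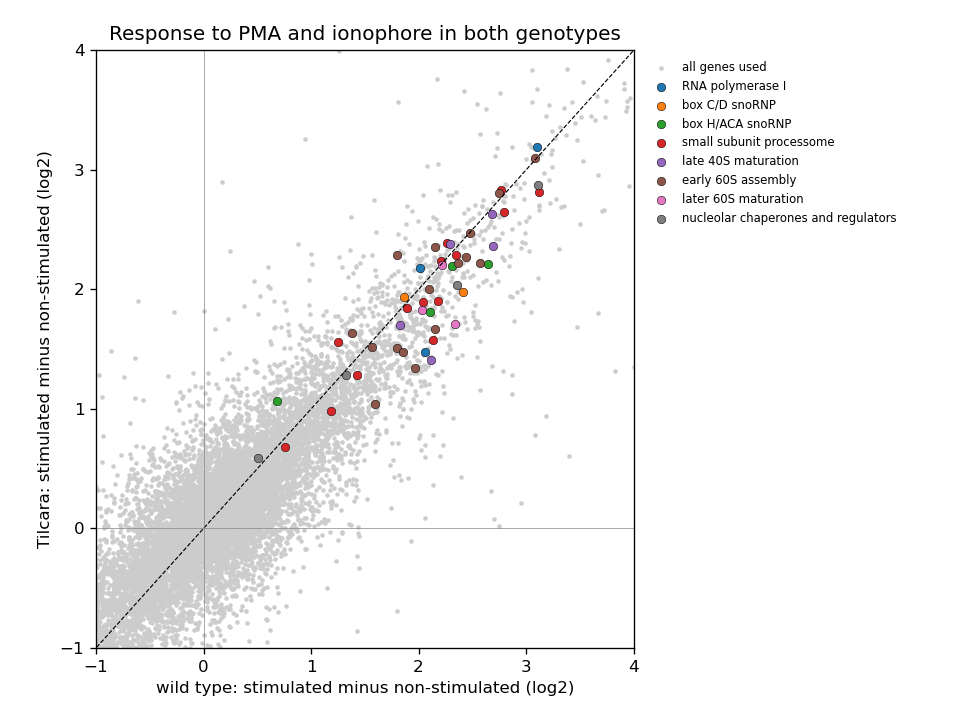
Stimulated minus non-stimulated (log2) in Tilcara (vertical axis) against wild type (horizontal axis), with 1 point per gene, the 51 factors coloured by role and all genes used in grey; both axes are shown from -1 to 4, and the dashed line marks equal responses. The factors lie between 0.51 and 3.12 in wild type and between 0.59 and 3.19 in Tilcara, and 36 of 51 lie below the line.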

How the data were processed

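Total RNA of 4 B cell samples was labelled with biotin for Affymetrix arrays, per the labels' protocols. The deposited values are log2 signals of 41345 probe sets, made by the authors with RMA, per the submitters' processing notes; the sources used here do not give its version, settings, annotation or genome build. RMA equalises the distributions of the arrays, whose medians lay between 3.73 and 3.79, so a change in total RNA per cell cannot be seen. The number of arrays limits the precision.

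The platform annotation gave 1 symbol to 23521 probe sets, several to 1814 and none to 16010. The brightest probe set by mean signal stood for each of 22180 genes. Genes entered if any array reached the signal floor of 3.83, the median over all values of single-symbol probe sets. The gene IDs of all 51 measured members matched RefSeq.

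Differences were taken between single arrays and counted at a size of 1. limma 3.58.1 (R 4.3.3) fitted stimulation and genotype over all 4 arrays, with a threshold of 0.05 on p adjusted by Benjamini-Hochberg over all genes used; "rose" and "fell" are its calls. The fit was tested on simulated data. Fixed alternatives were median centring, cyclic loess, the mean over probe sets, no filter, a stricter filter and an intensity trend with robust estimation. The members, lists and tests were chosen with earlier results of these data known. All members are named, with up to 4 genes of each other pathway list by size of change, and further genes where they limit a list. Promoters were printed for the motif holder with the largest change in a role; the roles after the small subunit processome, and Polr1b, were added after the values were seen, since no window of RNA polymerase I or snoRNP members held the motif.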

Additional observations from a re-analysis of the deposited data

How the results depend on the processing

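The stimulation call of the members kept its direction under every alternative run. limma called 51 of 51 after median centring, with the mean over probe sets, with the stricter filter and with an intensity trend and robust estimation, and 50 after cyclic loess and without a filter; the one lost was Npm1. The median difference was lower after cyclic loess, at 1.78 in Tilcara and 1.99 in wild type, and the cause was not tested. Other ribosome biogenesis genes that rose numbered between 97 and 104, and 1 fell in each. The count of members lower in stimulated Tilcara was 42 to 44, and its median lay between -0.13 and -0.08. In non-stimulated cells 19 members were below 0 after median centring, when the members' median was 0.08 and that of all genes 0.07 (39.2% below 0). After cyclic loess 28 were below 0, with medians of -0.04 and 0.02 (46.3% of all genes below 0). The median gap of both responses lay between -0.17 and -0.12. The lowest value came from median centring, where the median gap of all genes was also lower, at -0.04 (54.9% below 0). After cyclic loess the members had -0.12 and all genes -0.03 (52.8% below 0). Pairing by animal was not possible because each group has 1 array and the labels give no replicate numbers. The limma model itself compares the states within each genotype. No array could be left out of a group. Signals near the floor give approximate folds, and the lowest value of a member was 4.50, above it.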
